A study of Mus musculus with 12 samples.

Results

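Tnf, Tnfrsf1a, Tnfrsf1b and Tnfaip3 encode the cytokine TNF, its receptors TNFR1 and TNFR2, and A20, and they were taken as the rows of the deposited array table whose only gene symbol was 1 of these names. Each gene had 1 row, so 4 of the 21789 rows with a single gene symbol were members, in a table of 35556 rows. The table holds 12 arrays of RNA from colonic macrophages of the resident type (RM) and from dendritic cells with surface CD11b (CD11b+ DC), sorted from the cecum of C57Bl/6 mice of 6 to 8 weeks, both sexes pooled, with RNA of 3 to 4 mice on each array. Both were sorted as Ly6c- leukocytes with CD11c, MHCII and CD11b on their surface, RM with F4/80 and CD11b+ DC without it. There were 4 arrays of Runx3Δ RM, 3 of WT RM, 3 of Runx3Δ CD11b+ DC and 2 of WT CD11b+ DC. Runx3Δ mice carried Runx3 fl/fl and a CD11c-Cre transgene, which acts in cells that express CD11c, and are labelled Runx3 -/-; the WT mice were Runx3 +/+ littermates. The array row of Runx3 spans more of the gene than the deleted exon, so it cannot check the deletion. The question of the comparison was what loss of the transcription factor Runx3 in these cells did to their transcripts.

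As background, TNF is a cytokine that macrophages and DC make as a membrane protein, and the protease ADAM17 cuts it free. TNFR1, found on most cells, gathers a complex of adaptors, kinases and ubiquitin ligases that activates NF-κB or, when that branch is blocked, leads to cell death, while TNFR2, found mostly on immune and endothelial cells, binds TRAF proteins and lacks a death domain. A20 is a ubiquitin-editing enzyme that NF-κB induces and that dampens the same pathway. In the gut, antibodies to TNF are a treatment of inflammatory bowel disease.

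Promoters of all 4 genes were found in RefSeq (GRCm38.p6), and the 250 bases before the start of Tnf and of Tnfaip3 are shown because these were the members with the lower values in Runx3Δ cells. Each reads 5′ to 3′ along the gene's minus strand, Tnf from chr17:35202008-35202257 and Tnfaip3 from chr10:19015411-19015660, and capitals mark matches to the NF-κB consensus.
Tnf: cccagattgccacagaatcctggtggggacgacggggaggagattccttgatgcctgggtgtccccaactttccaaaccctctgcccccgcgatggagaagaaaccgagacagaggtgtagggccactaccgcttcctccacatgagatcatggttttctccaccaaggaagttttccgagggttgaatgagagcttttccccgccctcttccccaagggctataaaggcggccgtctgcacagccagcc
Tnfaip3: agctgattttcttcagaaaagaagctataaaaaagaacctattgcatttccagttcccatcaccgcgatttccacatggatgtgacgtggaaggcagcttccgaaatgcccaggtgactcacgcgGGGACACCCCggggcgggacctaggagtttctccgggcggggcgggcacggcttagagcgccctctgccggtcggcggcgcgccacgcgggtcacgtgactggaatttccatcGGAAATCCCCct
The RUNX core TGTGGT was searched on both strands in RefSeq windows of 300 bases, which also take in 50 bases past the start. It had no match for any of the 4 genes, nor at a second start listed for Tnfaip3, and 16.8% of 32851 such windows held it. The NF-κB consensus, searched in the same way, matched at 2 positions of the Tnfaip3 sequence, 125 and 12 bases before the start, the first of them on both strands, and nowhere in the windows of the other 3 genes. It was found in 8.46% of windows. A match of letters does not show binding, and a window without one says nothing of binding elsewhere. The study counts Tnf among its high-confidence Runx3 targets in RM. It defines these by a RUNX motif in overlapping peaks of enhancer marks or open chromatin assigned to the gene.

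Values are log2 intensities, normalized by the authors with RMA, and a difference of 1 is a 2-fold change. The 4 groups were fitted together with limma over all rows, and the p of each row received a Benjamini-Hochberg adjustment over the whole table, called under 0.05. The looser thresholds of the study were read beside it (a 1.5-fold change or more, with an unadjusted p up to 0.05). In each cell type more rows passed them in this fit than the study lists genes, also with 1 row per gene. A row past them here is therefore not always a call of the study. The labels also give each array a litter mate number from 1 to 4, which was read as a litter shared by arrays. The same fit with this litter as a block is given where it changed a call after adjustment. Of 11 measured RM markers, 10 were higher in WT RM than in WT CD11b+ DC after adjustment, and of 12 CD11b+ DC markers 10 were lower and 1 was higher. The neutrophil genes S100a8, S100a9 and Ly6g stayed at a log2 level of at most 5.04 on every array, but Csf3r and Siglecf of the same granulocyte and mast cell list reached 10.07 and 8.23, and the B cell genes Cd79a and Ms4a1 reached 10.59 and 10.36. Array medians lay between 5.33 and 5.52. In sorted bulk samples, fewer cells that express a gene and less RNA of it per cell cannot be told apart.

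Tnf transcripts were less abundant in Runx3Δ than in WT cells, in RM and in CD11b+ DC alike, with no overlap between the genotypes in either cell type. In RM, Tnf (row 10450501) had log2 levels of 9.20, 10.05, 10.06 and 10.55 on the Runx3Δ arrays, against 10.72, 11.53 and 11.07 on the WT arrays. All 4 Runx3Δ values lay under all 3 WT values, and the lowest came from litter 1, whose Runx3Δ array also had the lowest mean correlation with the other RM arrays (0.980, against 0.983 to 0.987). The means were 9.97 ± 0.56 (SD, n = 4) in Runx3Δ RM and 11.11 ± 0.41 (SD, n = 3) in WT RM. The difference was -1.14 (standard error 0.37, 95% interval -1.96 to -0.32), a 2.20-fold lower level, and -0.89 without that array. It passed the thresholds of the study but not the adjustment over all rows (limma, adjusted p = 0.474). Of all rows, 0.0141% passed the adjustment in RM, 0.731% passed the thresholds of the study as lower in Runx3Δ, and 3.43% had every Runx3Δ array under every WT array. An exact permutation test over the 35 splits of the RM arrays gave a two-sided p of 0.0571, where 0.0286 is the smallest it allows.

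Within litters the Tnf difference in RM varied less. Runx3Δ minus WT was -1.51 in litter 1, -1.48 in litter 2 and -1.01 in litter 3, so all 3 pairs ran the same way. With litter as a block the difference was -1.34 (standard error 0.13, 95% interval -1.65 to -1.03), and it then passed the adjustment (limma, adjusted p = 0.0404), as did 0.0225% of all rows. That call did not hold when any 1 of the 12 arrays was left out of the blocked fit, where the adjusted p ran between 0.0733 and 0.218 at differences of -1.44 to -1.23. It was also lost with quantile normalization and the block (adjusted p = 0.0556), with the block and the methods' test (adjusted p = 0.240), and with litter as a random effect (-1.16, adjusted p = 0.385), and kept with median centring and the block (adjusted p = 0.0357). The cause was not tested.

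In CD11b+ DC, Tnf had log2 levels of 8.14, 8.98 and 9.59 on the Runx3Δ arrays, against 10.40 and 9.82 on the WT arrays. The 3 Runx3Δ values again lay under both WT values, with litter 1 the lowest. The means were 8.90 ± 0.73 (SD, n = 3) in Runx3Δ and 10.11 ± 0.41 (SD, n = 2) in WT CD11b+ DC. The difference was -1.21 (standard error 0.44, 95% interval -2.18 to -0.23), a 2.31-fold lower level, past the thresholds of the study but not the adjustment (limma, adjusted p = 0.634; with the block -1.07, adjusted p = 0.507). The unadjusted p rose above the limit of the study without the litter 2 array of WT (-0.92) or the litter 1 array of Runx3Δ (-0.82). In this cell type 0% of rows passed the adjustment by limma or by the methods' test, 2395 rows had an unadjusted limma p under 0.05, 1.5% passed the thresholds of the study as lower, and 12.6% had every Runx3Δ array under every WT array. Both genotypes shared only litter 3, where the difference was -0.84. An exact permutation test over 10 splits gave p = 0.2 and could not have given less than 0.1. The study listed Tnf as lower in Runx3Δ RM and did not mark it as changed in Runx3Δ CD11b+ DC.

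Of the 12 CD11b+ DC markers, 8 had differences below 0 and 4 above 0 in these cells (median -0.10), with 2 past the thresholds of the study as lower. Their summed log2 level was 14.425 to 14.460 on Runx3Δ arrays and 14.495 to 14.527 on WT arrays, without overlap. Markers of other cells did not run 1 way in CD11b+ DC. Of the 11 macrophage markers, 6 had differences above 0 and 5 below 0 (median 0.05), with 1 past the thresholds of the study as lower. Among those below 0, Mrc1 averaged 9.34 in Runx3Δ and 10.55 in WT, and Cd163 5.43 in Runx3Δ and 6.54 in WT. The summed log2 level of the macrophage list was 13.50 to 13.95 on Runx3Δ arrays and 13.71 to 13.82 on WT arrays, with overlap. Of the 6 measured monocyte markers, 4 had differences below 0 (median -0.33), 2 of them past the thresholds of the study, and their summed log2 level was 11.75 to 12.24 on Runx3Δ arrays, against 12.73 to 13.08 on WT arrays. These were Fn1, which encodes fibronectin, at a mean of 10.30 in Runx3Δ and 12.32 in WT CD11b+ DC, and Vcan, which encodes versican, at 4.95 in Runx3Δ and 6.27 in WT, while Plac8 averaged 10.98 in Runx3Δ and 10.32 in WT, and Chil3 4.30 in Runx3Δ and 4.18 in WT. Stromal and endothelial markers were below 0 in 8 of 10 (median -0.47), with 2 past the thresholds as lower. Most markers of other lists lay above 0, namely 8 of 11 of T, NK and innate lymphoid cells (median 0.33), 8 of 12 of granulocytes and mast cells (median 0.16), 6 of 7 of B and plasma cells (median 0.09) and 10 of 12 of epithelium (median 0.27). The summed log2 level of the granulocyte and mast cell list was 9.77 to 10.10 on Runx3Δ arrays and 9.35 to 9.61 on WT arrays, without overlap. The T, NK and innate lymphoid list had a higher mean log2 level (6.38 to 6.50 in Runx3Δ and 6.26 to 6.31 in WT) but a lower sum (11.20 to 11.49 in Runx3Δ and 11.50 to 11.57 in WT), with Cd2 at 7.59 in Runx3Δ and 8.81 in WT. In RM the sums of all 8 marker lists overlapped between the genotypes. There, 10 of 11 macrophage markers (median -0.10) and 9 of 10 stromal and endothelial markers (median -0.17) lay below 0, and the mean log2 level of granulocyte and mast cell markers was 4.97 to 5.36 in Runx3Δ RM and 4.76 to 4.91 in WT RM, without overlap. The part of these markers in the Tnf values was not tested.

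**Figure D1:**
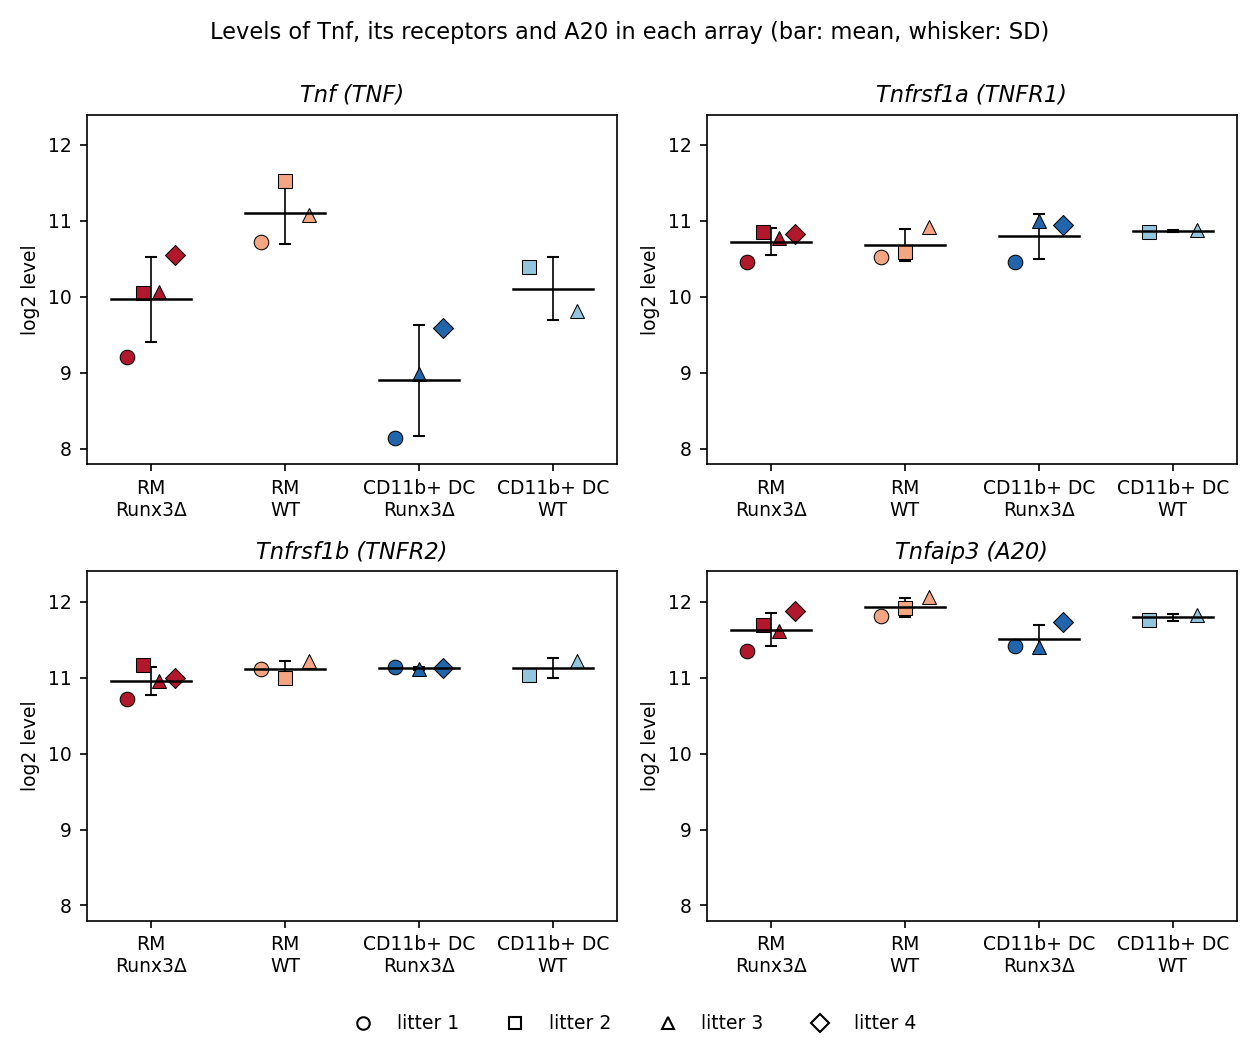
Log2 level of each of the 4 genes (vertical axis) on the 12 arrays, by cell type and genotype; points are arrays, shapes are litters, bars are means and whiskers 1 SD. Tnf is lower in Runx3Δ than in WT in both cell types without overlap, while the receptor genes stay between 10.45 and 11.22 on every array.

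The difference between the genotypes did not differ detectably between the cell types. The interaction, the RM difference minus the CD11b+ DC difference, was 0.07 for Tnf (standard error 0.58, 95% interval -1.21 to 1.34, limma adjusted p = 1.00). With the block it was -0.27 (95% interval -0.76 to 0.21). No row passed this test (0% of rows by limma, 0 by the methods' test, and 1391 rows at an unadjusted limma p under 0.05), and the interval of Tnf without the block reaches past 1 in either direction.

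By group mean, Tnf was higher in RM than in CD11b+ DC in each genotype. The Runx3Δ groups overlapped, with 9.20 as the lowest RM value and 9.59 as the highest CD11b+ DC value, and the WT groups did not. Exact permutation tests gave p = 0.0857 in Runx3Δ cells and p = 0.1 in WT cells, the latter being the smallest that 10 splits allow. Runx3Δ RM exceeded Runx3Δ CD11b+ DC by 1.06 (standard error 0.37, limma adjusted p = 0.125), and WT RM exceeded WT CD11b+ DC by 1.00 (standard error 0.44, limma adjusted p = 0.276). Both passed the thresholds of the study as higher, as did 4.02% of rows in Runx3Δ and 4.11% in WT cells, and neither passed the adjustment, which 7.85% and 6.07% of rows passed. Without the litter 1 array of Runx3Δ RM the excess in Runx3Δ cells was 1.32 and passed (limma, adjusted p = 0.0479), and without that of Runx3Δ CD11b+ DC it was 0.68. Within litters, RM minus CD11b+ DC was 1.07, 1.08 and 0.96 in litters 1, 3 and 4 of Runx3Δ mice. In WT mice it was 1.13 and 1.25 in litters 2 and 3. Every litter with both cell types therefore gave a value near 1. With the block the differences were 0.99 (standard error 0.13) in Runx3Δ and 1.26 (standard error 0.16) in WT cells, and both passed the adjustment (limma, adjusted p = 0.00330 and 0.00302, as did 7.37% and 6.62% of rows). With litter as a random effect neither passed (1.05 in Runx3Δ and 1.03 in WT cells, adjusted p = 0.104 and 0.217). With each array left out of the blocked fit in turn, the call held in 12 of 12 fits in Runx3Δ cells and in 11 of 12 in WT cells, the exception being the fit without the litter 3 array of WT CD11b+ DC (1.06, limma adjusted p = 0.0624). By group mean the order was WT RM, WT CD11b+ DC, Runx3Δ RM and Runx3Δ CD11b+ DC. The 2 WT CD11b+ DC values lay within the range of the Runx3Δ RM values, so these neighbours did not differ beyond their spread.

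**Figure D2:**
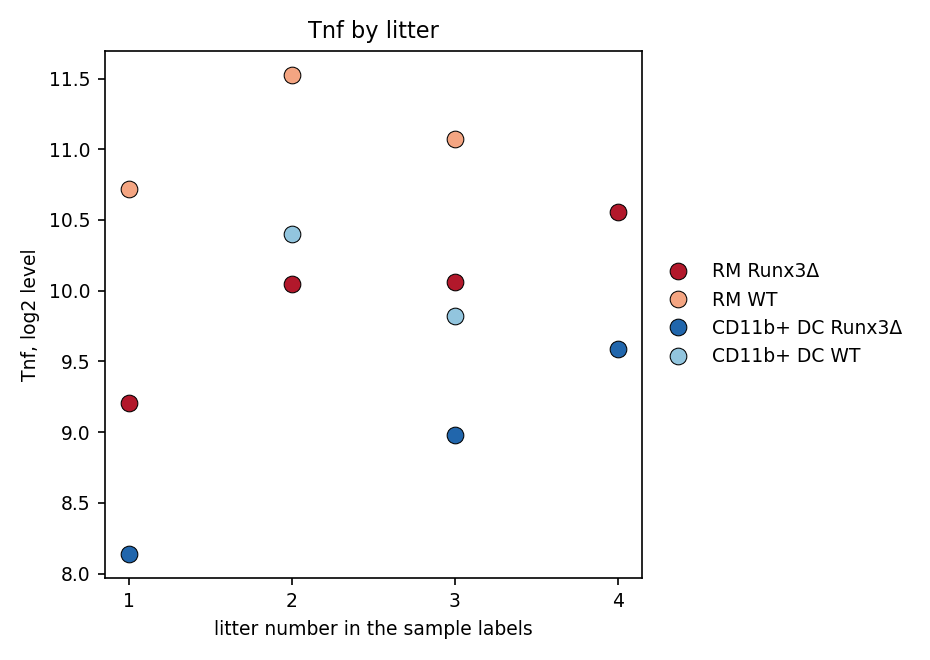
Log2 level of Tnf (vertical axis) against the litter number (horizontal axis), 1 point per array, coloured by cell type and genotype. In each litter with both genotypes of a cell type the Runx3Δ point is the lower, with differences of -1.51 to -0.84, and in each litter with both cell types of a genotype the RM point is the higher, by 0.96 to 1.25.

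The receptor genes showed no difference between the genotypes beyond their spread. Tnfrsf1a (row 10541895), which encodes TNFR1, had log2 levels of 10.46, 10.86, 10.77 and 10.82 in Runx3Δ RM, against 10.53, 10.59 and 10.92 in WT RM. In CD11b+ DC it had 10.45, 10.99 and 10.95 in Runx3Δ, against 10.85 and 10.88 in WT. The ranges overlapped in both cell types, and the lowest value of each Runx3Δ group was that of litter 1. The difference was 0.05 in RM (95% interval -0.29 to 0.39, limma adjusted p = 0.957) and -0.07 in CD11b+ DC (95% interval -0.47 to 0.34, limma adjusted p = 0.978). The widest of these bounds, -0.47, corresponds to less than the 1.5-fold threshold of the study.

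Tnfrsf1b (row 10518300), which encodes TNFR2, had log2 levels of 10.72, 11.17, 10.95 and 11.00 in Runx3Δ RM, against 11.12, 11.00 and 11.22 in WT RM. In CD11b+ DC the levels were 11.14, 11.11 and 11.12 in Runx3Δ, against 11.04 and 11.22 in WT. The 3 Runx3Δ CD11b+ DC values all lay between the WT ones. The difference was -0.15 in RM (95% interval -0.39 to 0.09, limma adjusted p = 0.773) and -0.0045 in CD11b+ DC (95% interval -0.29 to 0.28, limma adjusted p = 0.998). Between the cell types, RM minus CD11b+ DC was -0.07 in Runx3Δ and -0.18 in WT for Tnfrsf1a, and -0.16 in Runx3Δ and -0.02 in WT for Tnfrsf1b, with adjusted p between 0.50 and 0.983 in limma. For each receptor gene, the ranges of all neighbouring groups in the order of means overlapped.

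Tnfaip3 (row 10368144), which encodes A20, ran the same way as Tnf, with smaller differences that passed neither the adjustment nor the thresholds of the study. Its log2 levels were 11.35, 11.69, 11.62 and 11.87 in Runx3Δ RM, against 11.81, 11.92 and 12.06 in WT RM. The groups overlapped through the litter 4 array of Runx3Δ RM, at 11.87, for which there was no WT array of the same litter. In CD11b+ DC the levels were 11.41, 11.40 and 11.73 in Runx3Δ, against 11.76 and 11.83 in WT, without overlap. In this cell type 12.6% of all rows had every Runx3Δ array under every WT array. The exact permutation test of Tnfaip3 gave p = 0.2 there, where 0.1 is the smallest it allows. The difference was -0.30 in RM (standard error 0.13, 95% interval -0.59 to -0.01, limma adjusted p = 0.613) and -0.28 in CD11b+ DC (standard error 0.16, 95% interval -0.63 to 0.06, limma adjusted p = 0.788). Within litters it was -0.46, -0.23 and -0.44 in litters 1, 2 and 3 of RM, and -0.42 in litter 3 of CD11b+ DC, so all 4 pairs ran the same way. With the block the differences were -0.37 and -0.31, again without passing the adjustment (limma, adjusted p = 0.277 and 0.930). Tnfaip3 differed by 0.12 between RM and CD11b+ DC in Runx3Δ and by 0.13 in WT (limma, adjusted p = 0.733 and 0.786).

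**Figure D3:**
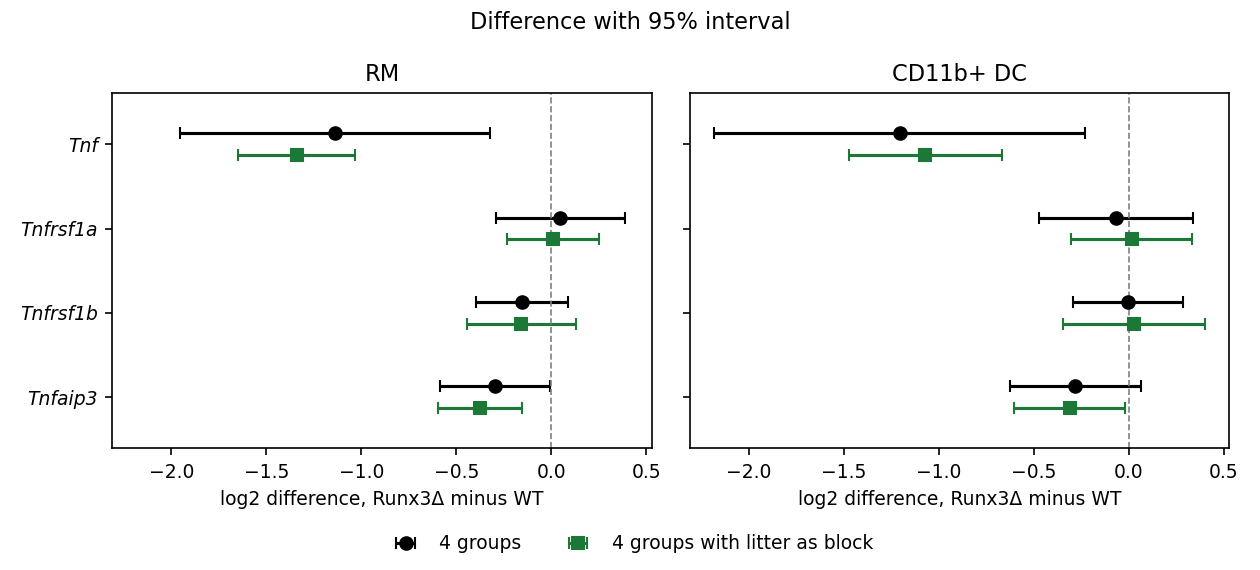
Log2 difference, Runx3Δ minus WT (horizontal axis), of the 4 genes in RM and CD11b+ DC with 95% intervals, from the fit of 4 groups (circles) and with litter as a block (squares). The intervals of Tnf lie below 0 in both cell types and those of both receptor genes include 0. For Tnfaip3 without the block, the RM interval ends at -0.01 and that of CD11b+ DC includes 0. With the block both lie below 0 (-0.60 to -0.15 in RM and -0.60 to -0.02 in CD11b+ DC).

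After the 4 group means were removed, Tnf and Tnfaip3 had a Pearson r of 0.76 over the 12 arrays, Tnf and Tnfrsf1a 0.69, Tnfrsf1a and Tnfaip3 0.68, Tnfrsf1b and Tnfaip3 0.58, Tnfrsf1a and Tnfrsf1b 0.52, and Tnf and Tnfrsf1b 0.15. These points share litters and array quality. Among 12211 genes with 1 symbol and a mean log2 level of at least 5, Tnfaip3 ranked 784 by its r with Tnf, Tnfrsf1a 1386 and Tnfrsf1b 6547, so none of the members was among the closest to Tnf. The 5 genes closest to Tnf were D17H6S56E-5 (r = 0.98), Hgsnat, Cmtm3, Zmynd8 and Pid1, the last at 0.95. The 5 closest to Tnfaip3 were Tcirg1, Sowahc, Evl, Mertk and Tuba4a, at 0.97 to 0.96. Those closest to Tnfrsf1a were Ccdc71l, Acot8, Tor1aip1, Slc25a39 and Slamf9, at 0.98 to 0.96. Tnfrsf1b was closest to Nedd4l, Tmem237, Tnfaip2, Tnip1 and Il18bp, at 0.98 to 0.91. Mertk, a receptor by which macrophages take up dying cells, was among the RM markers, and Tnip1 encodes a protein that binds A20.

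Few of the genes that act on TNF before and after its release passed any threshold. No gene of any list passed the adjustment in either cell type, and over all rows the median difference was 0.03 in RM and 0.01 in CD11b+ DC. Higher calls at the thresholds of the study were 0.728% of rows in RM and 0.633% in CD11b+ DC. Among 6 genes of TNF shedding, ADAM17 and its rhomboid partners included, none passed the thresholds of the study in RM, where the median was -0.08. In CD11b+ DC 1 did, Timp3, an inhibitor of ADAM17, with a difference of -0.96 at levels of 5.06 ± 0.61 (SD, n = 3) in Runx3Δ and 6.02 ± 0.94 (SD, n = 2) in WT. Of 14 genes that control Tnf mRNA or its translation, tristetraprolin (Zfp36) and Dusp1 among them, 0 passed in either cell type. Their medians were -0.12 in RM and -0.25 in CD11b+ DC, with 12 and 11 of 14 values below 0. Of 6 genes that neighbour Tnf or belong to the lymphotoxin system, 1 passed, Aif1, a macrophage gene of the same locus, which had 7.97 ± 0.21 (SD, n = 3) in Runx3Δ and 7.36 ± 0.08 (SD, n = 2) in WT CD11b+ DC. The median of this list was 0.00 in RM and 0.34 in CD11b+ DC, where 5 of the 6 values lay above 0.

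Downstream of the receptors, 15 measured genes of the signaling complex, such as Tradd, Traf2 and Birc3, had medians of 0.03 in RM and -0.12 in CD11b+ DC, and 0 passed the thresholds of the study. The same count held for the 11 partners of A20 and other inhibitors (medians -0.01 and -0.12) and for the 10 measured NF-κB subunits and IκB proteins (medians -0.14 and -0.17). All 10 of this last list lay below 0 in both cell types. Of 7 measured genes of the death branch, 0 passed in RM and 1 in CD11b+ DC, Zbp1, a nucleic acid sensor upstream of necroptosis, which was higher by 0.66.

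Of 25 measured TNF and NF-κB target genes, 1 passed the thresholds of the study as higher and 2 as lower in RM, with a median of -0.05. The chemokine genes Ccl3 and Ccl4 were the lower ones. Ccl4 averaged 9.07 ± 0.37 (SD, n = 4) in Runx3Δ RM and 10.12 ± 0.39 (SD, n = 3) in WT RM, without overlap. Its difference was -1.05 (limma, adjusted p = 0.283). Ccl3 was at 12.05 ± 0.28 (SD, n = 4) in Runx3Δ RM and 12.77 ± 0.38 (SD, n = 3) in WT RM, a difference of -0.72 (limma, adjusted p = 0.474). Mmp9, a secreted metalloproteinase, was higher by 1.16, with 10.06 ± 0.18 (SD, n = 4) in Runx3Δ RM and a wide spread in WT RM of 8.90 ± 1.00 (SD, n = 3). In CD11b+ DC 1 target passed as higher and 4 as lower, with a median of -0.23. Ccl4 (-1.08), Il6 (-0.88), Ccl3 (-0.82) and Cxcl2 (-0.62), cytokine and chemokine genes, were the lower ones, and Vcam1, an adhesion molecule, was higher by 0.76. Their adjusted p in limma lay between 0.376 and 0.581. Ccl3 and Ccl4 were thus past these thresholds on the same side as Tnf in both cell types.

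Among 13 other ligands of the TNF superfamily, Tnfsf4 (OX40 ligand) was lower in Runx3Δ RM by 1.21 and no other gene passed the thresholds of the study there. Its log2 levels ran between 5.48 and 5.55 on the Runx3Δ RM arrays and between 5.74 and 7.66 on the WT RM arrays, so the difference came with a wide spread in WT. In CD11b+ DC 3 ligands were lower, Tnfsf18 (GITR ligand) by 0.91, Tnfsf14 (LIGHT) by 0.80 and Tnfsf9 (4-1BB ligand) by 0.73. Of 24 other receptors of the superfamily, 2 were lower in RM and 0 in CD11b+ DC. These were Tnfrsf23, a decoy receptor of TRAIL, at 6.13 ± 0.20 (SD, n = 4) in Runx3Δ RM and 6.82 ± 0.14 (SD, n = 3) in WT RM, and Tnfrsf9 (4-1BB), at 7.37 ± 0.21 (SD, n = 4) in Runx3Δ RM and 8.02 ± 0.49 (SD, n = 3) in WT RM. The medians of the receptors were 0.03 in both cell types.

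Immediate-early genes, which cell isolation itself can induce, mostly ran the same way as Tnf. Of 23 measured, 18 had values below 0 in RM and 22 in CD11b+ DC, with medians of -0.33 and -0.39. In RM 3 passed the thresholds of the study as lower, Ppp1r15a (-0.80), Ier2 (-0.63) and Fos (-0.63), and in CD11b+ DC 2, Egr1 (-1.01) and Ier2 (-0.88). Their summed log2 level was 14.89 to 15.17 in Runx3Δ RM and 14.86 to 15.74 in WT RM, with overlap. In CD11b+ DC it was 14.99 to 15.24 in Runx3Δ and 15.34 to 15.59 in WT, without overlap. The part of this response in the values of Tnf and Tnfaip3 was not tested.

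**Figure D4:**
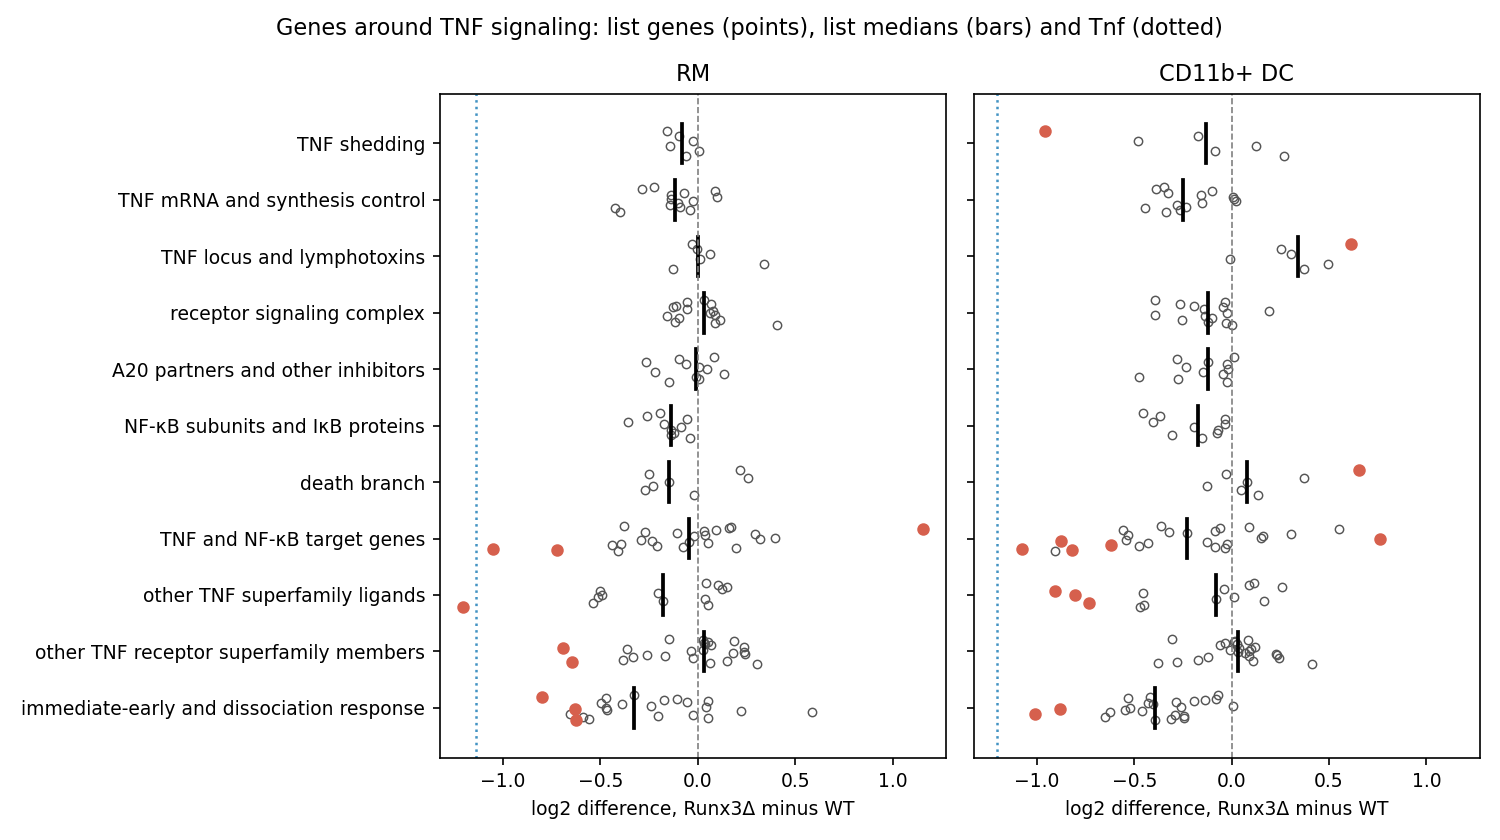
Log2 difference, Runx3Δ minus WT (horizontal axis), of single genes in 11 lists around TNF signaling (rows) in RM and CD11b+ DC. Points are genes, filled where they passed the thresholds of the study, short bars are list medians, the dotted line is Tnf and the dashed line 0. The Tnf line lies below every list median, and the immediate-early list has the lowest median in each cell type.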

How the data were processed

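The authors normalized the array intensities with RMA and a GC correction in Partek and deposited log2 values, which were used as they stand; the build in their processing notes is mm9. The platform annotation is that of a gene-level array, while the methods name an exon array. All 35556 rows were fitted with limma 3.58.1 in R 4.3.3 (statmod 1.5.0), as 4 groups, over all 12 arrays. Plots used matplotlib 3.10.9 under Python 3.11.15. A gene with several rows was read from the row with the highest mean. The members and lists were chosen with earlier results of these data known. Genes named were the members, up to 4 genes per list past the thresholds of the study, the 5 genes most like each member, and markers. After removal of group means, 13 pairs of arrays with the same litter number had a median correlation of 0.0958 (-0.0412 to 0.358). The 3 of these that joined Runx3Δ RM and WT RM had 0.0342 (-0.0412 to 0.207). The 40 pairs with different numbers had -0.0347 (-0.257 to 0.203). Taking the litter mate number as a litter shared by arrays is a reading of the labels, which these correlations do not settle. Alternatives were the block, fixed or random, the methods' test (no moderation), 1 cell type alone, array weights, an intensity trend, a filter at log2 5, quantile normalization, median centring, 1 row per gene, removal of 6617 unnamed leading rows, and omission of each array. Blocked versions of these were added after seeing the data. Simulated data of 35556 rows held 200 rows changed by log2 1 and 200 changed by log2 2 in each cell type. With no litter effect and no block, 83.5% of rows changed by log2 1 passed in RM and 72.5% in CD11b+ DC. With a litter effect of a set size these were 76.5% and 62.0% without the block, and 75.0% and 48.0% with the fixed block. The adjustment depends on the number of changed rows, so these are not the rates for a single row of the data such as Tnf. Arrays are taken as separate pools; their number limits the precision.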

Additional observations from a re-analysis of the deposited data

How the results depend on the processing

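Tnf kept its direction in both cell types under all 40 alternatives, at -1.44 to -0.89 in RM and -1.55 to -0.82 in CD11b+ DC. Several of these cannot change the difference itself, so their direction was fixed in advance. Without the block they were the methods' test, 1 cell type alone, the intensity trend, all fits with fewer rows, and omission of an array of the other cell type. With the litter block, alone or with the unnamed leading rows removed or 1 row per gene, it passed the adjustment in RM at -1.34 (limma, adjusted p = 0.0404, 0.00612 and 0.00126), and with the block and median centring at -1.40, whereas with the block and quantile normalization, or with the block and the methods' test (adjusted p = 0.240), it did not. Its excess in RM over CD11b+ DC passed with the block at 0.99 in Runx3Δ and 1.26 in WT cells, at 0.96 and 1.27 with median centring added, and at 1.00 and 1.25 with quantile normalization added. With litter as a random effect no Tnf difference passed (adjusted p = 0.385 for genotype in RM, and 0.104 in Runx3Δ and 0.217 in WT cells between the cell types). With an array left out of the blocked fit the excess was 0.90 to 1.07 in Runx3Δ and 1.06 to 1.45 in WT cells, and over the fits with and without the block 0.68 to 1.41 and 0.71 to 1.45.

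Changes of sign were limited to results between -0.18 and 0.12 in the main fit, but some alternatives lay further from 0, up to -0.44 for the Tnf interaction. With the block, the Tnf interaction was -0.27 (-0.31 with centring, -0.25 with quantile normalization, and -0.073 with array weights and no block). Tnfrsf1a had 0.016 in CD11b+ DC (0.034 with quantile normalization), -0.047 in RM with centring, and interactions of -0.0077 and, with centring, -0.047. Tnfrsf1b had 0.027 in CD11b+ DC (0.010 with centring, 0.073 with quantile normalization, and 0.028 with quantile normalization and no block), and WT RM minus WT CD11b+ DC of 0.018 (0.023 with centring, 0.035 with quantile normalization, and 0.0068 with array weights and no block). Blocked values were the same with 1 row per gene, without the leading rows and in the methods' test. With an array left out, with or without the block, Tnfrsf1a ran between -0.10 and 0.17 in RM and between -0.17 and 0.10 in CD11b+ DC, Tnfrsf1b between -0.10 and 0.15 in CD11b+ DC, and the interactions of Tnf between -0.44 and 0.41, of Tnfrsf1a between -0.18 and 0.24 and of Tnfaip3 between -0.15 and 0.088. Between the cell types Tnfrsf1a then ran between -0.24 and 0.028 in Runx3Δ and between -0.31 and 0.075 in WT cells, and Tnfrsf1b between -0.11 and 0.14 in WT cells. The block changed no other call after adjustment. At the thresholds of the study it changed some pathway list calls. In CD11b+ DC, Timp3 and Aif1 no longer passed, and 1 immediate-early gene was lower instead of 2. Lower calls rose from 4 to 5 among the targets and from 3 to 4 among the other ligands there. In RM they rose from 3 to 5 among immediate-early genes and from 1 to 2 among the other ligands. Counts of marker lists also moved.

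Rows past the adjustment in RM, 5 of all rows, were 8 with the block, 8 with centring, 15 with array weights, 29 without the leading rows, 47 with 1 row per gene, and 0 with 1 cell type alone or with the methods' test. With an array left out they were 4 to 63, the highest without WT RM replicate 1. In CD11b+ DC, 0 became 6 with 1 row per gene and 0 to 7 with an array left out. At the thresholds of the study, 519 rows in RM became 284 with 1 row per gene and 509 to 919 with an array left out, and 758 in CD11b+ DC became 380 with 1 row per gene, 464 without the leading rows and 618 to 1231 with an array left out. Rows that differed between the cell types after adjustment were 1562 to 3320 in Runx3Δ and 1020 to 2611 in WT cells. Centring moved the share of higher calls in RM to 37.6% (208 higher, 345 lower), against 49.9% as deposited (259 higher, 260 lower). The causes were not tested beyond the construction of fits with fewer rows or arrays. Omission of a WT CD11b+ DC array leaves 1 in that group, whose spread is then taken from the other groups.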
